A study of Homo sapiens with 8 samples.

Results

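The SP family of zinc finger transcription factors was followed through the differentiation of human embryonic stem cells towards posterior neural fate. Its members were taken by gene name, SP1 to SP9, from a table of TPM (transcript abundance scaled to a fixed library total), a measure also scaled by transcript length so that levels of different genes can be set side by side. Of the 9 names, 8 had a row among the 35940 gene symbols of the table, and 7 passed the filter on low values that 14908 genes in all passed. SP9 stayed below that filter. SP7 had no row under its symbol, and its Ensembl identifier stood under another name, as described with its values.

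All cells were of ESI017, a single human embryonic stem cell line of wild-type genotype. They were moved to the serum-free neural medium N2B27 with SB and LDN, the inhibitors that every sample received, and recombinant WNT3A protein was added at 34 h. RNA was taken at 34, 42, 50 and 72 h, that is 0, 8, 16 and 38 h after WNT3A, with a pair of libraries per time point and 8 libraries in all. The design describes the second library of each time point as an independent biological replicate, and the labels give its number as a batch number. Cells left without WNT3A were not analysed here, so in any comparison with 34 h the effect of WNT3A and that of time cannot be told apart. In these bulk samples, fewer cells of a type and less RNA per cell cannot be told apart either.

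SP factors bind GC-rich boxes in DNA through a cluster of zinc fingers at the end of the protein, a domain they share with the Krüppel-like factors (KLF). SP1 and SP3 are found in nearly all cells and act at many housekeeping promoters. SP5 to SP9 are developmental members with restricted patterns. SP5 is a known direct target of WNT signalling through β-catenin and TCF/LEF factors and acts largely as a repressor, and SP8 works in limb outgrowth and in patterning of the anterior neural tube.

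The 7 tested members fell into those that rose by 42 h and those that were not called at that time. SP5, SP6 and SP8 rose by 42 h. SP1, SP2 and SP4 passed the test in no comparison, and SP3 rose slightly by 72 h. This division follows the measured values and is a description. All changes below are differences of log2(TPM + 1), a scale on which changes at low TPM come out too small. Every adjusted p is from limma, by the Benjamini-Hochberg method over 14908 genes.

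The promoter stretches of SP5, SP8 and SP4 are shown because the first pair rose and SP4 did not, and because SP4 and SP8 are neighbours on chromosome 7. Each is the 250 bases before the gene's start in RefSeq on GRCh38.p14, written 5′ to 3′ along the gene's own strand. Capitals mark matches, on either strand, to the letters CTTTGNT or CTTTGAA, both forms of the sequence that TCF/LEF factors bind. The second form was added after the sequences had been seen. The stretch of SP5 is chr2:170715087-170715336 on the plus strand, that of SP8 is chr7:20786887-20787136 on the minus strand and that of SP4 is chr7:21427833-21428082 on the plus strand.
SP5: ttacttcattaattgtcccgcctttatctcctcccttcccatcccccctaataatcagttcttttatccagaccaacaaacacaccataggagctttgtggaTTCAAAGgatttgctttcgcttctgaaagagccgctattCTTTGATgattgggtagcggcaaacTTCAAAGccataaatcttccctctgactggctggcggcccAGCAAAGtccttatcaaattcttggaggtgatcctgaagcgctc
SP8: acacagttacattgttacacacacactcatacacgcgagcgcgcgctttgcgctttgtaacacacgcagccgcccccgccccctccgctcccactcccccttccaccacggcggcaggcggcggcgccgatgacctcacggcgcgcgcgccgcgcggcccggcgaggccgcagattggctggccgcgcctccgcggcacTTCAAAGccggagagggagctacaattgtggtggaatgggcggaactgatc
SP4: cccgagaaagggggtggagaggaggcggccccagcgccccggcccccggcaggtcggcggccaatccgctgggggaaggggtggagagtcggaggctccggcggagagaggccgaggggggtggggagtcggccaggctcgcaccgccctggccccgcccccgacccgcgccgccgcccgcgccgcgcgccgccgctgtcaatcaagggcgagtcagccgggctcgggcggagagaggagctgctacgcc

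The SP5 stretch held 4 such matches, beginning 148, 109, 84 and 44 bases before the start. CTTTGNT accounted for 2 of them and CTTTGAA for the other two, and the forms do not overlap. Of 35116 windows of this length in the RefSeq table, 13.2% held CTTTGNT, 3.80% held CTTTGAA, and 681 windows (1.94%) held 2 or more matches to either. A count of 4 or more, a number set after the SP5 stretch had been seen to hold 4, was found in 6 windows. The SP8 stretch held 1 match, to CTTTGAA, 51 bases before the start. None of the 7 windows matched for SP1, SP2, SP3 and SP4 held either form. These 7 windows held 55.2% to 83.6% G and C, and the shares over all windows were not matched for that content.

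The GC box GGGCGG, the sequence that SP factors themselves bind, did not occur in the SP5 stretch. It occurred 3 times in that of SP8 and 4 times in that of SP4, and was found in every window of SP1, SP2 and SP3, from 1 to 8 times. Among all windows, 42.6% held it. The TATA box TATAAA, present in 10.7% of windows, occurred in none of the 9 SP windows. G and C made up 45.6% of the SP5 stretch, 68.0% of that of SP8 and 78.8% of that of SP4. No promoter sequence was used here for SP6, SP7 and SP9, so these counts cover 6 of the 9 members. A match describes the letters in the window and is no evidence of binding.

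SP5 was the lowest of the 7 tested members at 34 h and the highest from 42 h on. The gene lies on chromosome 2 at 170715351 to 170718078 on the plus strand (GENCODE release 29, GRCh38). Its level was 0.255 and 0.106 TPM in the 34 h libraries of replicates 1 and 2, 182 and 146 TPM by 42 h, 226 and 149 TPM by 50 h, then 201 and 194 TPM by 72 h. Every library after 34 h was thus far above both 34 h libraries, while the ranges at 42 and 50 h overlapped, as did those at 50 and 72 h. The change from 34 to 42 h was 7.12 ± 0.20 (SE, limma adjusted p = 1.93e-06), at 50 h it was 7.29 (adjusted p = 1.28e-06) and at 72 h 7.40 (adjusted p = 1.24e-06). Within replicate 1 the first step was 7.19 and within replicate 2 it was 7.05. With a pseudocount of 0.1 in place of 1 it was 9.23, since the 34 h level lies under 1 TPM.

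Neither of the later steps of SP5 passed the test, and 72 h was not tested against 42 h. Its mean was 164 ± 25.7 TPM (SD, n = 2) at 42 h, 188 ± 54.6 at 50 h and 198 ± 4.94 at 72 h. From 42 to 50 h the log2 difference was 0.17 (95% interval -0.28 to 0.63, limma adjusted p = 0.842). From 50 to 72 h it was 0.11 (95% interval -0.35 to 0.56, adjusted p = 0.804). The 2 libraries at 50 h were the farthest apart of any time point after 34 h.

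SP8 was already detected at 34 h and rose less. It lies on chromosome 7 at 20782283 to 20786886 on the minus strand. Its level was 1.75 and 2.12 TPM at 34 h, 14.0 and 14.9 by 42 h, 21.7 and 16.6 by 50 h, then 10.9 and 9.99 by 72 h. The 4 pairs of libraries did not overlap, and the order from low to high was 34, 72, 42 and 50 h. The log2 change against 34 h was 2.40 ± 0.17 at 42 h (limma adjusted p = 0.000346), 2.77 at 50 h (adjusted p = 0.000103) and 1.97 at 72 h (adjusted p = 0.000150). The first step was 2.45 within replicate 1 and 2.35 within replicate 2.

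SP8 then fell. Its change from 50 to 72 h was -0.80 ± 0.17 (95% interval -1.20 to -0.41, limma adjusted p = 0.0287), with -0.93 in replicate 1 and -0.68 in replicate 2. The call was lost without the 50 h library of replicate 1 (adjusted p = 0.128) and without either 72 h library (0.118 without replicate 1 and 0.150 without replicate 2), and held in 12 of 17 alternatives, where the adjusted p ranged from 0.0235 to 0.150. The difference between 42 and 50 h was 0.37 (95% interval -0.02 to 0.76, adjusted p = 0.571).

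SP6, also called epiprofin and known for its role in tooth and skin epithelium, was the third member to rise. Its gene is on chromosome 17 at 47844908 to 47855874 on the minus strand. The libraries gave 2.83 and 2.44 TPM at 34 h, 17.5 and 11.6 by 42 h, 12.6 and 9.55 by 50 h, then 4.53 and 6.43 by 72 h. Both 72 h libraries lay between the 34 h and the 50 h libraries, and the 42 and 50 h ranges overlapped. SP6 rose by 2.07 ± 0.24 at 42 h (limma adjusted p = 0.00353) and was 1.72 above 34 h at 50 h (adjusted p = 0.00497).

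At 72 h SP6 was 0.82 ± 0.24 above 34 h (limma adjusted p = 0.0431), a call that held in 7 of 17 alternatives, where the adjusted p ranged from 0.0302 to 0.216. It was lost without any single 34 h or 72 h library (0.0593 to 0.216) and under both other scalings (0.0506 and 0.0518), among others. The difference from 50 to 72 h was -0.90 ± 0.24 and did not pass the test (adjusted p = 0.0657), nor did it in any of the 17 alternatives (0.0551 to 0.301).

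**Figure D1:**
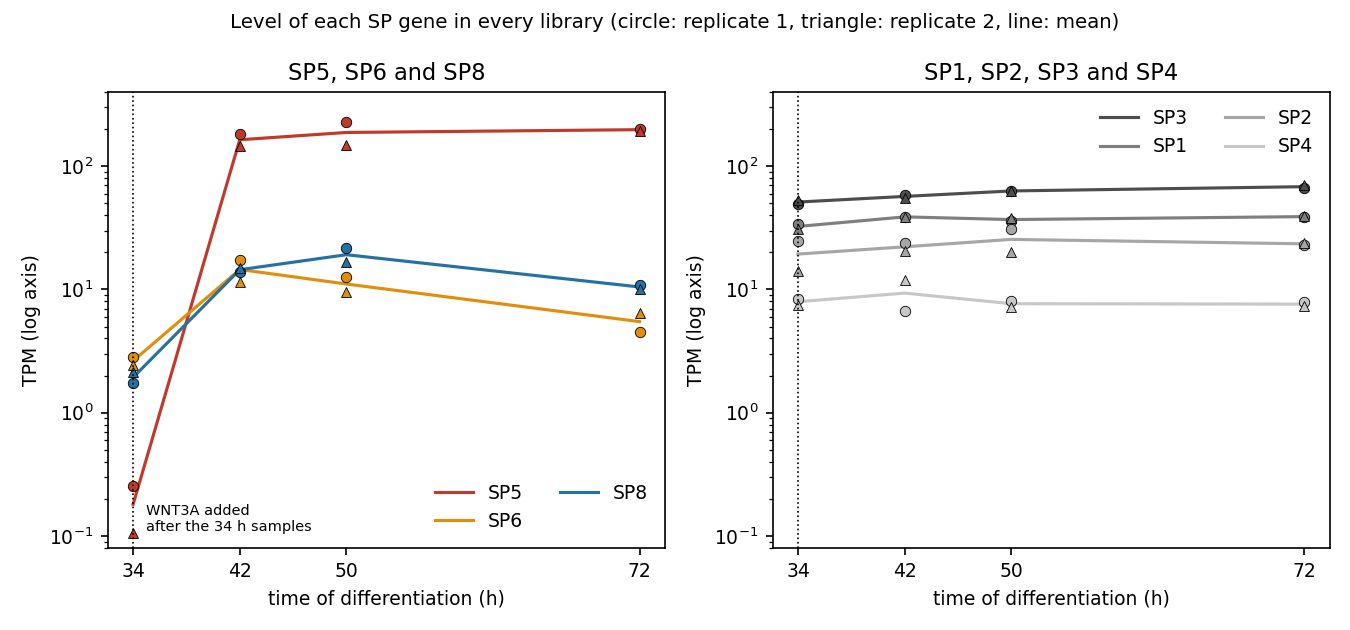
TPM of 7 SP genes (vertical log axis) in each library against the time of differentiation in hours. Circles are replicate 1, triangles replicate 2 and lines join the means of 2 libraries. SP5 went from below 1 TPM to above 100 TPM by 42 h, SP6 and SP8 rose and had lower means at 72 h than at 50 h, a fall that passed the test for SP8 only, and SP1, SP2 and SP4 passed no test while SP3 was slightly higher by 72 h.

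SP3 was the most abundant member before WNT3A and drifted upward. It gave 49.5 and 52.9 TPM at 34 h, 58.6 and 55.1 by 42 h, 62.5 and 63.4 by 50 h, then 66.6 and 69.8 by 72 h. No libraries of different time points overlapped, and the means stood in the order of time. The change reached 0.41 ± 0.09 by 72 h (95% interval 0.19 to 0.63, limma adjusted p = 0.0170), while 0.29 at 50 h (adjusted p = 0.123) and 0.15 at 42 h (adjusted p = 0.589) did not pass. The 72 h call was lost when any 34 h or 72 h library was left out (0.0512 to 0.103). Over the whole course the moderated F-test gave SP3 an adjusted p of 0.0625.

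SP1, the first GC-box factor to be described, moved within a narrow band. Its level was 33.8 and 31.1 TPM at 34 h, 38.8 in both libraries by 42 h, 35.9 and 37.9 by 50 h, then 38.4 and 39.6 by 72 h. Every later library was above both at 34 h, and the log2 difference was 0.25 at 42 h (95% interval 0.02 to 0.49, limma adjusted p = 0.324) and 0.26 at 72 h (adjusted p = 0.106). Neither passed the test over all genes, and the upper bound leaves room for a change of up to 0.49.

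SP2, a widely expressed member with a divergent DNA-binding preference, and SP4, which is enriched in the nervous system, overlapped between all time points compared. SP2 gave 24.6 and 14.1 TPM at 34 h, 23.9 and 20.5 by 42 h, 30.7 and 20.2 by 50 h, then 22.9 and 24.0 by 72 h. SP4 gave 8.37 and 7.52 TPM at 34 h, 6.68 and 12.0 by 42 h, 8.05 and 7.26 by 50 h, then 7.86 and 7.33 by 72 h. At 72 h against 34 h the log2 difference of SP2 was 0.31 (95% interval -0.30 to 0.92, limma adjusted p = 0.431). That of SP4 was -0.06 (95% interval -0.60 to 0.49, adjusted p = 0.891).

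The precision behind these intervals differed between the members. The intervals rest on variances moderated by limma, with an SE of 0.103 for SP1, 0.0947 for SP3, 0.265 for SP2 and 0.238 for SP4. Before moderation the members lay farther apart. The unmoderated replicate SD of log2(TPM + 1) was 0.0517 for SP1 and 0.0518 for SP3, below the 0.169 of the median gene. It was 0.346 for SP2 and 0.279 for SP4, so changes of these 2 genes that SP1 and SP3 would have shown could pass unseen. Among the rising members it was 0.249 for SP5, 0.284 for SP6 and 0.155 for SP8.

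SP9, a relative of SP8 known from limb ectoderm and forebrain interneurons, was at or near the bottom of the table. It was listed between 0 and 0.219 TPM, with its highest value in the 42 h library of replicate 1, and was not tested. SP7, also called osterix and a regulator of bone-forming cells, is ENSG00000170374 in GENCODE. The table gives that identifier the name AC073611.1. Its row held between 0.0694 and 1.06 TPM and was also not tested. Of 5 osteoblast markers, IBSP was listed at 0 in every library and RUNX2 stayed under 1 TPM. The list as a whole summed to 248 to 353 TPM, most of it ALPL at 203 to 341 TPM, a phosphatase also found in pluripotent stem cells, and SPP1 ranged from 2.88 to 44.7 TPM.

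Set against all genes, a call was rare at the early times and more common at 72 h. The members were chosen with earlier results of these data known, so the counts below are a description. At 42 h, 3 of 7 tested SP genes were higher than at 34 h, beside 1.78% of all genes. At 50 h they were again 3, beside 3.52%, and at 72 h they were 4, including SP3, beside 12.7%. From 42 to 50 h none was called by limma, beside 0.0939% of genes in either direction. At an unadjusted limma p under 0.05 the count was 0 of 7, beside 1394 of 14908 genes. From 50 to 72 h 1 of 7, SP8, was called lower, beside 4.41% of genes. At an unadjusted limma p under 0.05 there were 2 of 7, beside 3336 of 14908 genes in either direction. The other was SP6, with its larger difference of -0.90. By the F-test over all times, SP5, SP6 and SP8 were the 3 of 7 called, beside 17.4%. These shares depend on single libraries. In either direction, 384 genes were called at 42 h and 160 without replicate 2 of 34 h, 933 at 50 h and 412 without the same library, and 3578 at 72 h and 1840 without replicate 1 of 72 h. From 42 to 50 h the 14 became 1 without replicate 2 of 42 h, and from 50 to 72 h the 1093 became 319 without replicate 1 of 72 h. The median change of the 7 was 0.25 at 42 h and 0.41 at 72 h, beside medians of 0.01 and 0.06 over all genes.

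**Figure D2:**
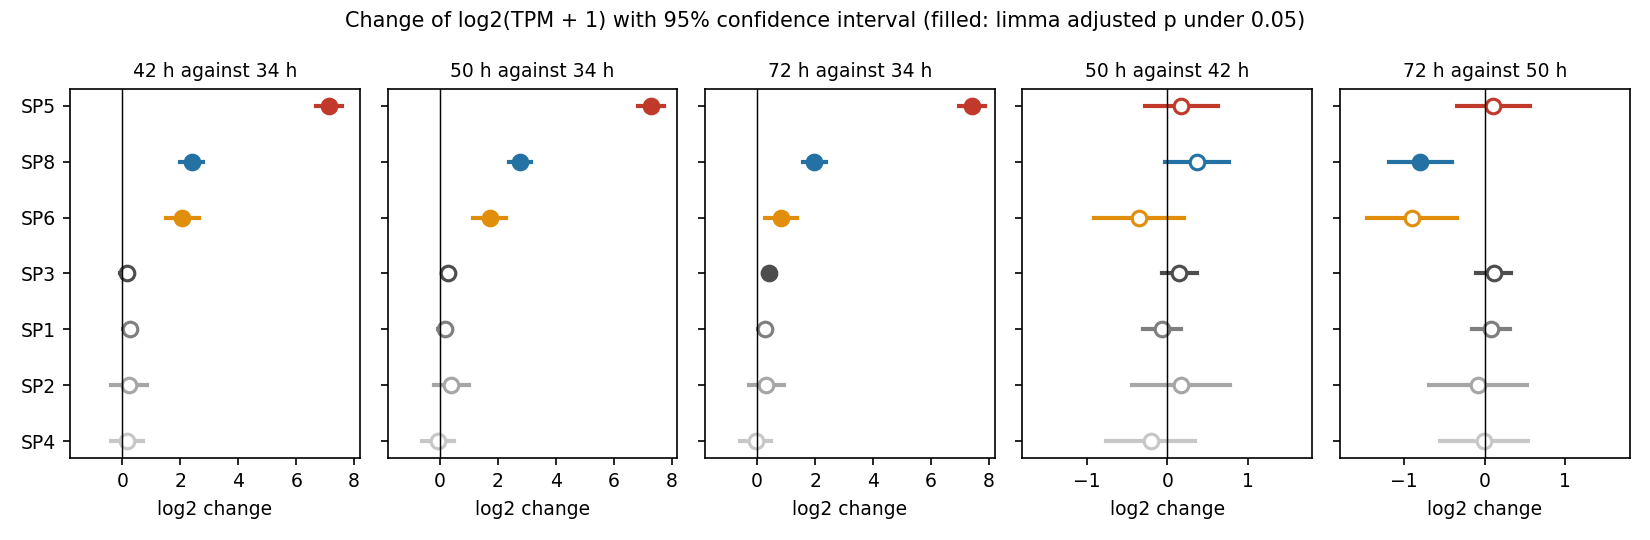
Change of log2(TPM + 1) with its 95% confidence interval for 7 SP genes in 5 comparisons, 1 panel each. Filled points have a limma adjusted p under 0.05. The 3 panels against 34 h share a horizontal scale on which SP5 sits beyond 7. The right-hand panels have a finer scale, on which SP8 from 50 to 72 h is the filled point.

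The order of the members changed between 34 and 42 h. At 34 h it was SP3, SP1, SP2, SP4, SP6, SP8, SP5 and SP9 from high to low, and no neighbours in that order overlapped in their libraries. At 42 h SP5 came first, followed by SP3, SP1 and SP2, then by SP6 and SP8, which overlapped, and by SP4 and SP9. At 50 h SP2 and SP8 overlapped. By 72 h SP6 had dropped below SP4, with SP8 still above it.

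SP5 alone came to hold about as much of the family's transcripts as all other members together. The summed level of the 8 measured members was 121 and 110 TPM at 34 h, 342 and 299 by 42 h, 398 and 304 by 50 h, then 353 and 352 by 72 h. SP5 made up 0.210% and 0.0965% of it at 34 h, 53.3% and 48.8% by 42 h, 56.9% and 49.0% by 50 h, then 57.1% and 55.3% by 72 h. The share of SP1, SP2, SP3 and SP4 went from 96.0% and 95.8% to 38.5% and 40.0% between 34 and 72 h. Their summed level did not shrink meanwhile, from 116 and 106 TPM before WNT3A to 136 and 141 TPM by 72 h.

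**Figure D3:**
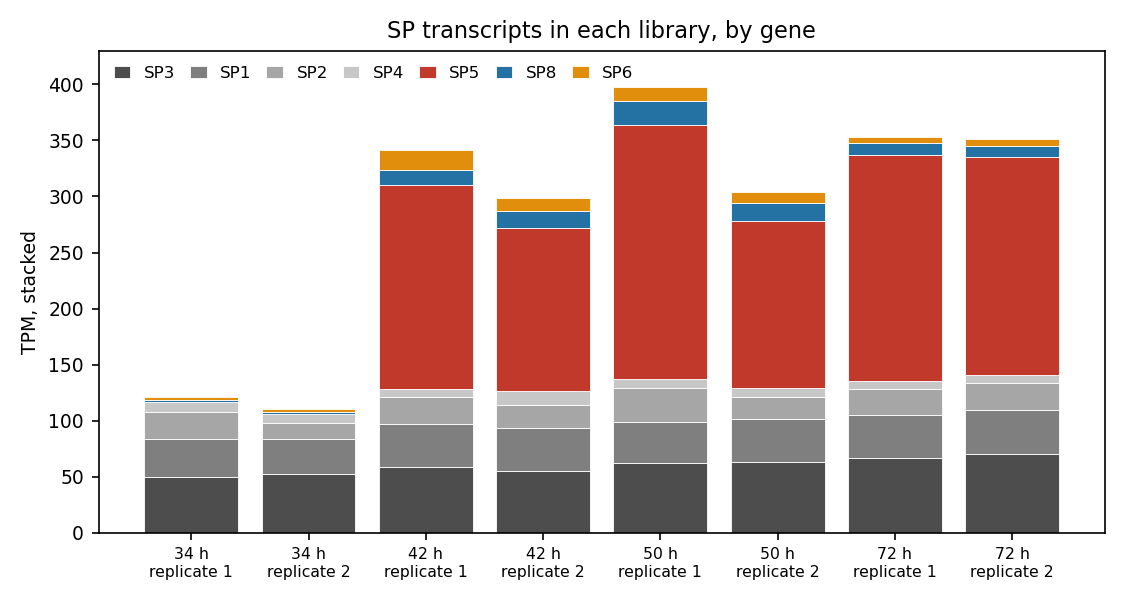
Stacked TPM of the SP genes in each of the 8 libraries, with SP3, SP1, SP2 and SP4 in greys at the base and SP5, SP8 and SP6 in colour above. The grey stack stayed between 106 and 141 TPM, and the SP5 block appeared between 34 and 42 h.

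SP5 and SP8 differed in where their 72 h libraries stood relative to the earlier ones. The ratio of SP5 to SP8 in TPM was 13.0 and 9.75 for the 42 h libraries, 10.4 and 9.01 for those of 50 h, then 18.4 and 19.5 for those of 72 h. Both 72 h libraries lay above all 4 earlier ones. On the log2 scale the ratio was 0.81 higher at 72 h than at 42 and 50 h, with a two-sided exact permutation p of 0.0667. That is the smallest p that the 15 splits of 6 libraries allow, so the test could not have passed 0.05, and it was set up with the course of these genes known. The difference is therefore a description. Under the other scalings, pseudocount and left-out libraries the difference ranged from 0.74 to 0.91.

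Relative to their 42 h means, SP5 stood at 121% at 72 h, SP8 at 72.4% and SP6 at 37.7%. AXIN2, a scaffold of the complex that degrades β-catenin and a widely used readout of WNT signalling, stood at 71.9%, and LEF1, a nuclear partner of β-catenin, at 66.7%. NKX1-2, a homeobox gene of the caudal epiblast, stood at 14.8%. These 3 genes were picked with their values known and do not stand for their lists. Of the 14 tested WNT feedback and target genes, the 72 h mean was above the 42 h mean in 7 and below it in 7. Both 72 h libraries lay above both 42 h libraries in 4 of them and below both in 7. The median of the 14 stood at 88.1% of the 42 h mean. NKD1 stood at 186%, TNFRSF19 at 504% and RNF43 at 100.3%, so SP5 was not alone in standing above its 42 h mean. From 50 to 72 h AXIN2 differed by -0.48 (limma adjusted p = 0.0992) and LEF1 by -0.51 (adjusted p = 0.0904), neither past the threshold, and NKX1-2 fell by 2.60 (adjusted p = 0.000295).

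**Figure D4:**
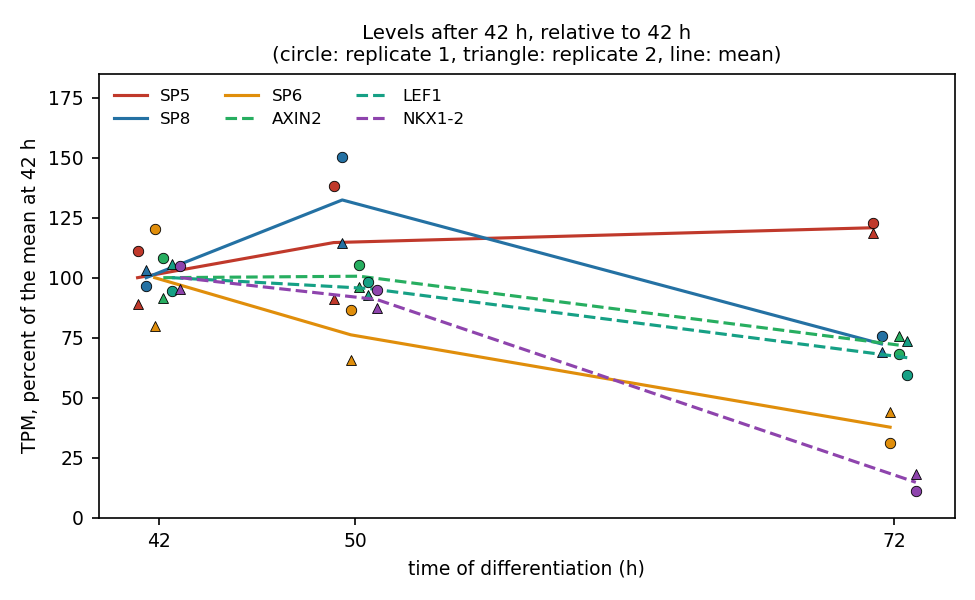
TPM at 42, 50 and 72 h as a percentage of the gene's own 42 h mean, for SP5, SP6, SP8, AXIN2, LEF1 and NKX1-2. Circles are replicate 1, triangles replicate 2, lines join the means, and genes are set slightly apart along the time axis for legibility. SP5 ended above its 42 h mean at 121%, and the other 5 plotted genes ended under theirs. Of the 14 tested WNT feedback and target genes, 7 also had a higher mean at 72 h. In 4 of the 14 both 72 h libraries lay above both 42 h libraries, and in 7 both lay below.

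Of the 15 WNT feedback and target genes listed for comparison, 14 were tested. At 42 h 9 were higher than at 34 h and none was lower, beside 1.78% and 0.792% of all genes, with a list median of 2.09. At 72 h 9 were higher and 1, BAMBI, was lower, beside 12.7% and 11.3%, with a median of 1.23. Of the 10 tested caudal progenitor genes among 12 listed, 6 were higher and 1 was lower at 42 h. Between 50 and 72 h 5 of these 10 fell (TBXT, CDX1, CDX2, NKX1-2 and EVX1) and 2 rose (WNT8A and CYP26A1), beside 4.41% of all genes lower and 2.92% higher. Of the 6 called higher at 42 h, GBX2 was the one that did not fall in that interval, over which SP5 differed by 0.11. These lists were chosen with earlier results known, and their counts are a description.

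**Figure D5:**
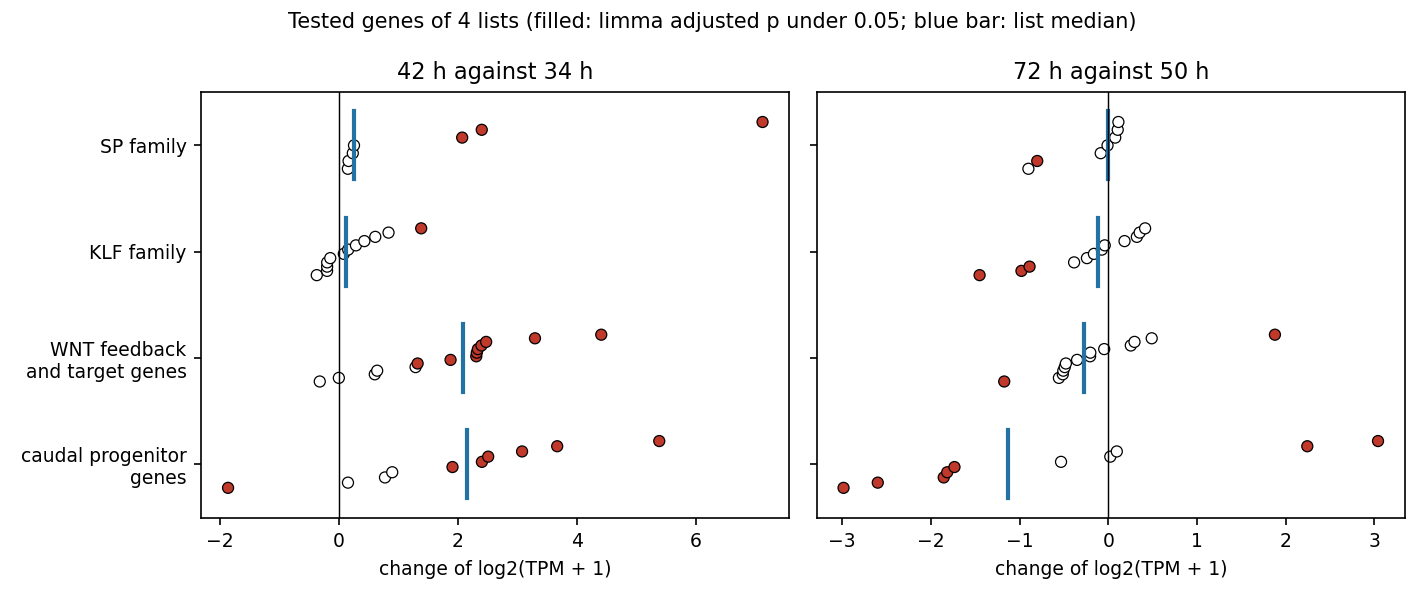
Change of log2(TPM + 1) of every tested gene in 4 lists, at 42 h against 34 h on the left and at 72 h against 50 h on the right. Filled points have a limma adjusted p under 0.05 and the blue bar is the list's median. At 42 h the SP list has 3 filled points and the KLF list 1. From 50 to 72 h the SP list has 1, the KLF list 3, and the caudal progenitor list lies mostly below 0.

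The KLF family, whose zinc fingers resemble those of the SP factors, had 18 members with a row and 12 that were tested. Its summed level showed no such growth, with 106 to 128 TPM at 34 h and 110 to 111 TPM at 72 h. KLF14, KLF17 and KLF18 were listed at 0 in every library. At 42 h 1 of the 12 was higher, beside 1.78% of all genes, and from 50 to 72 h 3 of the 12 were lower, beside 4.41%. KLF5, an epithelial and stem cell factor, was the member called at 42 h. It had 1.03 and 1.42 TPM at 34 h, 4.17 and 5.44 by 42 h, 4.64 and 3.34 by 50 h, then 0.751 and 0.870 by 72 h.

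KLF5 thus rose by 1.38 ± 0.24 (limma adjusted p = 0.0211), a call lost without any single 34 h or 42 h library (0.0687 to 0.151), with low genes kept in (0.0567) and with only 34 and 42 h in the fit (0.0809). From 50 to 72 h it fell by 1.45 (adjusted p = 0.00947), a call lost without the 50 h library of replicate 1 (0.0568) or either 72 h library (0.0743 and 0.0517), and with only 50 and 72 h in the fit (0.0508). In the same interval KLF4, a pluripotency-associated member, changed by -0.98 (adjusted p = 0.0272) and KLF6 by -0.89 (adjusted p = 0.0123). The median KLF change was 0.12 at 42 h and -0.12 from 50 to 72 h.

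Several SP genes lie side by side in the genome and still moved apart. SP6 and SP2 are neighbours on chromosome 17 with 40.28 kb between them, SP8 and SP4 are neighbouring coding genes on chromosome 7 with 641.1 kb between them, and SP7 and SP1 are neighbours on chromosome 12 with 34.86 kb between them. In the first 2 pairs one gene rose at 42 h and its partner did not pass the test. SP5, SP3 and SP9 share chromosome 2, where SP3 and SP9 are 369.2 kb apart.

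The coding genes flanking SP5 were MYO3B and ERICH2. ERICH2, 65708 bases away, averaged 1.91 TPM at 34 h, 7.40 by 42 h, 5.22 by 50 h and 7.35 by 72 h, and rose by 1.54 at 42 h (limma adjusted p = 0.00632) and 1.52 at 72 h (adjusted p = 0.00140). MYO3B, 60180 bases away on the other side, averaged 0.222 TPM at 34 h and 1.34 at 42 h, a difference of 0.93 that did not pass the test (adjusted p = 0.123). Beside SP8, ABCB5 was listed at 0 in 7 of 8 libraries and at 0.0646 TPM in the 42 h library of replicate 1. SCRN2, beside SP6, averaged 21.2 TPM at 34 h and 20.9 at 42 h (log2 difference -0.02, adjusted p = 0.985). The antisense gene SP2-AS1 overlaps SP2 and was not analysed here, and strand-specific counting is not stated, so SP2 values may hold its reads. The pseudogene SP3P was listed at 0 in all libraries.

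Correlations over the 8 libraries describe how alike the courses were, with all genes read from the same libraries and most of the spread set by the step after 34 h. Pearson's r of log2(TPM + 1) was 0.957 between SP5 and SP8, 0.874 between SP6 and SP8, and 0.793 between SP5 and SP6. It was also 0.896 between SP5 and SP1, whose own change was small, and 0.0145 between SP5 and SP4.

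Among 11533 genes with at least 5 TPM at some time point, the gene most like SP5 was GBX2, a homeobox gene of the hindbrain side of the midbrain-hindbrain boundary, with r = 0.9997. GBX2 had 1.31 and 1.21 TPM at 34 h, 102 and 85.9 by 42 h, 132 and 97.8 by 50 h, then 112 and 119 by 72 h. At 42 and 50 h the library with more SP5 also held more GBX2, and at 72 h it held less. TMEM132C (0.9964), RNF43 (0.9961), FHL1 (0.9948) and SCARA3 (0.9931) followed. RNF43 is a ubiquitin ligase that removes WNT receptors from the cell surface. The most opposed were FZD5 (-0.9912), a WNT receptor, ANOS1 (-0.9886) and OTX2 (-0.9809), a homeobox gene of forebrain and midbrain.

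The genes most like SP8, a likeness fixed by how they were picked, were DNAJC9 (r = 0.9897), STOX1 (0.987), TCF4 (0.9867), TNFRSF11B (0.9855) and CXorf40A (0.9843). A high r does not mean a large change. DNAJC9 averaged 25.5 TPM at 34 h and 31.7 at 42 h (log2 difference 0.31, limma adjusted p = 0.217). Of these 5 genes, TNFRSF11B alone was called lower from 50 to 72 h (-1.47, limma adjusted p = 0.0113). TNFRSF11B, the decoy receptor osteoprotegerin, had 0.329 and 1.20 TPM at 34 h, 18.0 and 23.7 by 42 h, 27.3 and 30.6 by 50 h, then 9.12 and 10.5 by 72 h. TCF4 is a basic helix-loop-helix factor and not the WNT partner that once carried the same name. SENP2 (-0.9854), ANOS1 (-0.9843) and NMU (-0.9802) were the most opposed.

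For SP6, added after its values had been seen, CXXC5 was closest (r = 0.9919), followed by GALNT10 (0.9808), TNS1 (0.9767), CDX2 (0.9737) and CNIH3 (0.9735). CXXC5, a zinc finger protein reported to restrain WNT signalling, had 53.3 and 51.8 TPM at 34 h, 152 and 130 by 42 h, 136 and 118 by 50 h, then 74.8 and 80.7 by 72 h. Both genes had their highest library at 42 h, and their 72 h libraries lay between those of 34 and 50 h.

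Markers fixed for other cell types were read beside these results. All 7 pluripotency markers were tested and summed to 3269 to 3762 TPM over the libraries, but the members moved in opposite directions. At 72 h against 34 h POU5F1 fell by 1.64 (limma adjusted p = 7.66e-06), from a mean of 1159 to 371 TPM, and DPPA4 fell by 1.21 (adjusted p = 7.65e-05), while SOX2 and PODXL rose. Neural progenitor markers (5 of 6 tested) summed to 170 to 176 TPM at 34 h, 186 to 206 by 42 h, 222 to 274 by 50 h and 358 to 393 by 72 h. Most of the sum was NES, with a mean of 135 TPM at 34 h and 229 at 72 h. At 72 h 4 of the 5 tested were called higher than at 34 h, beside 12.7% of all genes. SOX3 was not called (mean 21.2 TPM at 34 h and 19.9 at 72 h), and HES5 stayed under 1 TPM in every library. At 42 h, when SP5, SP6 and SP8 rose, 1 of the 5 tested neural progenitor markers was called higher and 4 were not. It was CDH2 (log2 change 1.16, limma adjusted p = 0.00157). Of the 7 pluripotency markers 1 was called lower, PRDM14 (-1.37, limma adjusted p = 0.00369), and 6 were not called. PRDM14 averaged 22.1 TPM at 34 h, 7.92 by 42 h, 10.8 by 50 h and 26.6 by 72 h. Over all genes, 1.78% were called higher and 0.792% lower at 42 h. The part of these markers in the SP results was not tested. Neuron markers (3 of 5 tested) summed to 3.36 to 5.25 TPM at 34 h, 7.12 to 7.39 by 42 h, 12.1 to 12.6 by 50 h and 14.0 to 15.5 by 72 h. Of these 5, STMN2 was called higher than at 34 h at all 3 later times (mean 0.288 TPM at 34 h, 1.52 by 42 h, 5.24 by 50 h and 7.56 by 72 h), DCX at 50 and 72 h but not at 42 h (log2 difference 0.64, limma adjusted p = 0.215), and ELAVL3 at none. ELAVL4 stayed under 1 TPM in every library and NEUROD1 was at 0 in 7 of 8. The part of these genes in the SP results was not tested. Neural crest markers (3 of 6 tested) summed to 4.49 to 9.28 TPM over all libraries, with FOXD3 lower by 42 h (log2 change -1.65, adjusted p = 0.00894) and SNAI2 higher by 50 h (1.39, adjusted p = 0.0121). Surface ectoderm markers, read because SP6 and SP8 are known from ectoderm, summed to 1.15 to 3.58 TPM in all libraries, with TP63, KRT14 and GATA3 under 1 TPM throughout. Mesoderm markers summed to 3.30 to 6.27 TPM, with MSGN1 listed at 0 in every library. Endoderm markers (1 of 5 tested) summed to 1.43 to 1.91 TPM at 34 h, 5.87 to 6.30 by 42 h, 2.52 to 2.98 by 50 h and 6.35 to 7.27 by 72 h. SOX17 was at 0 throughout, and the gene behind the sum was CXCR4, higher by 42 h (1.43, adjusted p = 0.0102). Each library had 13860 to 14004 genes at 1 TPM or more, and mitochondrial genes held 8.70% to 11.2% of TPM.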

How the data were processed

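Libraries of poly(A) RNA from 8 samples were sequenced as paired ends, per the labels' protocols. The deposited values are TPM per Ensembl gene, 1 column per library, each summing to 1000000. Salmon 1.9.0 and GRCh38 are named per the submitters' processing notes, and the annotation and filters are not given in the sources used here. TPM keeps no read numbers, so depth is unknown and no counting interval or floor was computed.

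The table's 37951 rows were summed to 35940 symbols (1034 had several rows). A gene was tested if 2 or more libraries held 1 TPM or more. limma 3.58.1 (R 4.3.3) fitted log2(TPM + 1) of the 8 libraries, with a mean for each time point and moderated variances that follow the mean. Tests were two-sided, adjusted over 14908 genes, and called at an adjusted p under 0.05. The fit was tested on simulated data.

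Text named all SP members, genes of the lists, the 5 most and 3 least correlated genes of SP5 and SP8, and flanking coding genes. The members and lists were chosen with earlier results of these data known. Replicate numbers are batch numbers and so pair the libraries. Deviations of same-numbered libraries correlated at between -0.104 and 0.195 over the 6 pairs of time points. Alternatives were another pseudocount, filter, scaling or variance model, the compared time points alone, a replicate block, rows kept apart and each library left out. Promoters and positions came from RefSeq (GRCh38.p14) and GENCODE release 29 (GRCh38).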

Additional observations from a re-analysis of the deposited data

How the results depend on the processing

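The calls of SP5, SP8 and SP6 at 42 and 50 h against 34 h, and of SP5 and SP8 at 72 h, held in all 17 alternatives. Over all contrasts, 576 of 595 values of the SP members kept their side of the threshold and 19 lost significance. The sign changed in 13, all of SP2, SP4 or SP5 in contrasts where the member was not called, and in 0 values of a called change. Without 50 h replicate 1, SP5 from 42 to 50 h was -0.13, and without 50 h replicate 2, SP5 from 50 to 72 h was -0.19. At 72 h against 34 h, 4 members were called, and 2 to 4 with 1 library left out, SP3 and SP6 being lost without any 34 h or 72 h library. At 72 h against 50 h, 1 member (SP8) was called, 0 without the filter on low values (SP8 -0.80, limma adjusted p = 0.0680), 0 when only 50 and 72 h entered the fit (SP8 -0.80, adjusted p = 0.0988), and 0 to 1 with 1 library left out, where the SP8 change ranged from -0.99 to -0.62. The first loss came with more genes tested (22275) and the second with fewer libraries in the fit. The F-test called 2587 genes, and 1158 to 2508 with 1 library left out. The count was 1670 and 1555 without replicate 1 or 2 of 34 h, and 1158 and 1213 without replicate 1 or 2 of 72 h.

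With the replicate block, SP8 from 50 to 72 h had an adjusted p of 0.0396, SP6 at 72 h against 34 h 0.0462 and SP3 at 72 h against 34 h 0.0225, and the block changed no call of an SP member. The unknown depth limits what can be said of SP7, SP9 and the 34 h level of SP5, which lie near or under 1 TPM.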
